A study of Mus musculus with 5 samples.

Results

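Nuclear receptors are transcription factors that many small, fat-soluble molecules bind and switch. The genes described here were 42 mouse nuclear receptor genes chosen by name, and 35 of them were in the deposited table of 19198 genes from small intestine. Esr2, Esrrb, Nr0b2, Rarb, Rxrg, Rorb and Nr2f1 were the 7 that were not in the table used, in which the lowest total of any listed gene over the 5 libraries was 10 counts. RNA was sequenced after ribosomal RNA depletion from the small intestine of 5 mice, 1 library per mouse. Both groups carried floxed alleles of mAChR4 (gene symbol Chrm4), the M4 muscarinic acetylcholine receptor, and every mouse received RU486 at 10 mg/kg by gavage daily for 4 days. The Cre-positive group was 2 mice that also carried Math1Cre*PR, and the Cre-negative group was 3 littermates without it. In Math1Cre*PR a Cre recombinase joined to a progesterone receptor domain is driven from Math1, a gene of secretory precursor cells, and it is switched on by RU486. No mouse went without RU486, so nothing here measures the drug, and no mouse carried the Cre without the floxed alleles. The labels give no strain, age or stretch of intestine.

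As background, a nuclear receptor binds short DNA elements, often as a pair with a retinoid X receptor, and exchanges corepressors for coactivators when its ligand arrives. Steroid receptors wait in complexes with heat shock chaperones, whereas several receptors of the gut, such as the bile acid receptor and the pregnane X receptor, sense what is eaten, absorbed or secreted into the lumen. RU486 (mifepristone) blocks the progesterone receptor and the glucocorticoid receptor and activates the pregnane X receptor.

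Library totals ranged from 4681119 to 6618204 estimated counts. The labels number every mouse separately, so the spread is that between mice. All 16 enterocyte markers were in the table, and their summed level ranged from 20171 to 43639 CPM (counts scaled to library size with TMM factors), with Fabp1 at 0 in at least 1 library. The samples also held muscle and connective tissue, and their smooth muscle markers (10 of 10 in the table) summed to between 1313 and 4052 CPM, with Cre-negative 1 at the top and Cre-positive 1 at the bottom. Cre-positive 1 stood apart in B cell and plasma cell markers (9 of 10 in the table), at 479 CPM against 12.2 to 27.9 CPM in the other mice, where Cd79a, Cd79b and Cd22 were among the markers at 0 in at least 1 library. Markers of the proximal small intestine (9 of 10 in the table) were highest in Cre-negative 3, at 1436 CPM, and lowest in Cre-positive 1 and Cre-negative 2, at 320 and 322 CPM. Markers of the distal small intestine (10 of 10 in the table) summed to 3454, 2124 and 1567 CPM in Cre-negative 1, 2 and 3. In Cre-positive 1 and 2 they summed to 3148 and 3010 CPM. Cre-negative 1 was highest and Cre-negative 2 lay below Cre-positive 2, so the distal markers did not simply reverse the proximal order. In whole tissue, fewer cells of a type and less RNA per cell cannot be told apart.

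The 2 HNF4 genes stood above all other nuclear receptor genes in these samples. Per kilobase of exon, Hnf4g had a mean level of 179 ± 52.9 CPM per kb (SD, n = 5) and Hnf4a of 106 ± 17.8 CPM per kb. Together they took 49.4% ± 3.20 (SD, n = 5) of the summed per-length level of the 35 genes, from 46.4% in Cre-negative 2 to 53.2% in Cre-positive 2. Both encode receptors that hold enterocytes to their fate and drive genes of the brush border and of fat handling. Hnf4a (chromosome 2, 163506808 to 163572910, plus strand, GRCm38) had 400, 615 and 472 CPM in Cre-negative 1, 2 and 3 and 487 and 578 CPM in Cre-positive 1 and 2. Hnf4g (chromosome 3, 3508030 to 3658052, plus strand) had 475, 319 and 605 CPM in Cre-negative 1, 2 and 3 and 340 and 609 CPM in Cre-positive 1 and 2. The groups overlapped for both genes, and the 2 genes did not follow each other from mouse to mouse. Cre-negative 2 was the highest mouse for Hnf4a and the lowest for Hnf4g, and there the per-length ratio of Hnf4g to Hnf4a was 0.951, against 1.28 to 2.35 in the other mice. The log2 fold change (Cre-positive over Cre-negative throughout) was 0.10 ± 0.27 (SE) for Hnf4a and 0.03 ± 0.36 for Hnf4g.

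**Figure D1:**
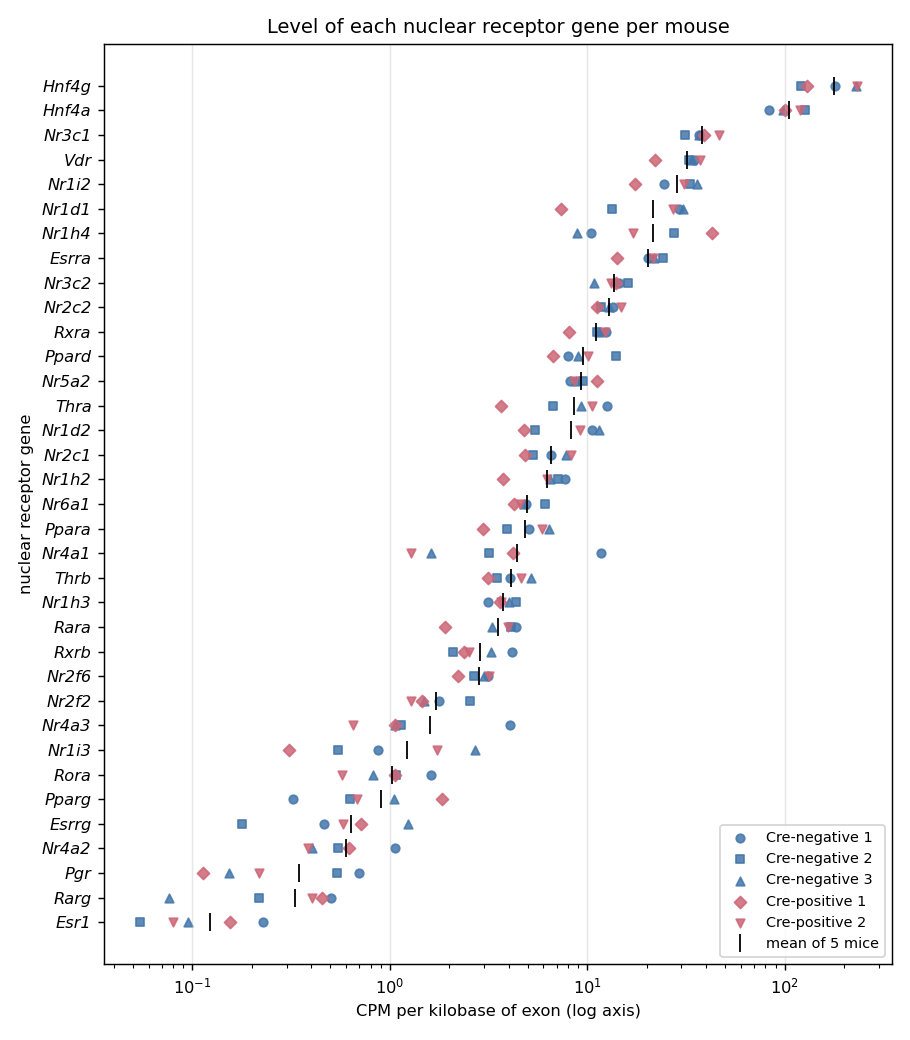
Level of the 35 nuclear receptor genes in each mouse, in CPM per kilobase of exon on a log axis, ordered by the mean of 5 mice (black bar), with blue points for Cre-negative and red points for Cre-positive mice. Hnf4g and Hnf4a form a separate top pair, at means of 179 and 106 CPM per kb, and the ranges of most neighbours below them overlap.

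Below the HNF4 genes the per-length order ran Nr3c1 (38.0 ± 5.44 CPM per kb), Vdr (32.2 ± 5.85), Nr1i2 (28.5 ± 7.46), Nr1d1 (21.5 ± 10.5), Nr1h4 (21.5 ± 14.2), Esrra (20.4 ± 3.75), Nr3c2 (13.7 ± 1.93) and Nr2c2 (12.8 ± 1.42). Neighbours in the order overlapped in their ranges over the 5 mice for 33 of 34 pairs, and the exception was the step from Hnf4a to Nr3c1. The 6 highest genes took 70.3% ± 3.93 of the summed per-length level. At the bottom were Pgr, Rarg and Esr1, at 0.345 ± 0.261, 0.331 and 0.123 CPM per kb. Counted without division by length, 5 genes averaged at least 100 CPM, 20 averaged 10 to 100 CPM and 10 were under 10 CPM.

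Of the receptors that RU486 can bind, those for glucocorticoids and for xenobiotics were plentiful and that for progesterone was scarce. Nr3c1, the glucocorticoid receptor (chromosome 18, 39410545 to 39519421, minus strand), had 283, 240 and 283 CPM in Cre-negative 1, 2 and 3 and 298 and 356 CPM in Cre-positive 1 and 2, from 1179 to 2290 counts a library. Both Cre-positive mice lay above all 3 Cre-negative mice, at means of 327 ± 40.7 (SD, n = 2) and 269 ± 24.5 CPM (SD, n = 3). The log2 fold change was 0.29 ± 0.22 (SE; edgeR's quasi-likelihood test, unadjusted p = 0.230, Benjamini-Hochberg adjusted p = 0.977), and it ranged from 0.19 to 0.44 when each mouse was left out. Nr3c1 was the only gene of the 35 with both Cre-positive mice above all Cre-negative mice, an arrangement that 7.89% of the 14352 genes tested showed.

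Pgr, the progesterone receptor (chromosome 9, 8899833 to 8968611, plus strand), had counts of 25, 25 and 8 in the 3 Cre-negative libraries in order, and of 5 and 12 in those of Cre-positive 1 and 2. Its level was 5.99 CPM (exact Poisson 95% interval 3.88 to 8.84), 4.63 CPM (2.998 to 6.84) and 1.30 CPM (0.563 to 2.57) in the Cre-negative mice. In Cre-positive 1 and 2 it was 0.968 CPM (0.314 to 2.26) and 1.87 CPM (0.964 to 3.26). Only counting error enters these intervals. Cre-negative 1 and 2 were high, and Cre-negative 3 lay between the Cre-positive mice, so the groups overlapped. The log2 fold change was -1.43 ± 0.73 (edgeR, unadjusted p = 0.0916, the smallest of the 35 genes, and adjusted p = 0.977). Pgr passed the filter on low counts only through the Cre-negative libraries. Smooth muscle markers were also highest in Cre-negative 1 and 2, and their part in the Pgr values was not tested. Whether reads of the progesterone receptor domain of the transgene were counted under Pgr was not tested either. Per length, Nr3c1 stood 52.5 to 343 times above Pgr in the same mouse.

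Nr1i2, the pregnane X receptor (chromosome 16, 38248323 to 38294824, minus strand), had 62.5, 84.9 and 92.0 CPM in Cre-negative 1, 2 and 3 and 44.7 and 79.1 CPM in Cre-positive 1 and 2. Cre-positive 1 was the lowest mouse and Cre-positive 2 lay among the Cre-negative mice. The log2 fold change was -0.37 ± 0.31 (edgeR, unadjusted p = 0.272, adjusted p = 0.977), and without Cre-positive 1 or 2 in turn it was 0.02 and -0.80.

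Genes that these receptors are known to drive were read as lists. Of 16 listed targets of the glucocorticoid and mineralocorticoid receptors, 14 were tested, 0 passed, and 4 had positive and 10 negative log2 fold changes with a median of -0.41. Over all 14352 genes the median was -0.04 and 45.5% were positive. Sgk1, a kinase that raises sodium uptake, had 428, 134 and 276 CPM in Cre-negative 1, 2 and 3 and 241 and 345 CPM in Cre-positive 1 and 2. Mt1, a metallothionein that also responds to zinc, had 370, 128 and 192 CPM in the Cre-negative and 132 and 140 CPM in the Cre-positive mice. Both were highest in Cre-negative 1 and overlapped between groups. Klf9, a glucocorticoid- and thyroid-responsive repressor, averaged 66.9 ± 15.5 and 49.8 ± 0.610 CPM (log2 fold change -0.42 ± 0.26), and Zbtb16, whose gene is a classic glucocorticoid target, averaged 4.23 ± 2.26 and 2.33 ± 0.00671 CPM (-0.83 ± 0.56).

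Of 16 listed targets of the pregnane X receptor, 15 were tested, 0 passed, and 2 were positive and 13 negative with a median log2 fold change of -0.31. For 1 of the 15, both Cre-positive mice lay below all Cre-negative mice, against 10.2% of all genes tested. Gstm1, a glutathione transferase, had 84.8, 30.6 and 71.2 CPM in Cre-negative 1, 2 and 3 and 15.7 and 34.4 CPM in Cre-positive 1 and 2. Its log2 fold change was -1.31 ± 0.52 (edgeR, unadjusted p = 0.0393, adjusted p = 0.977), and Cre-positive 2 lay above Cre-negative 2. It ran from -1.94 to -0.81 with each mouse left out. Cyp3a11, the cytochrome that oxidises many drugs, had 368, 66.3 and 721 CPM in Cre-negative 1, 2 and 3 and 9.87 and 552 CPM in Cre-positive 1 and 2. Cyp3a13, a related enzyme of the gut, averaged 546 ± 155 and 440 ± 269 CPM. Cyp3a44 was at 0.489 to 5.03 CPM, and Aldh1a1, a retinal dehydrogenase, averaged 149 ± 43.7 and 108 ± 24.9 CPM.

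Nr1i3, the constitutive androstane receptor and the closest relative of Nr1i2 in function, was far lower per length than Nr1i2, by 13.4 to 60.9 times. It had 3.83, 2.41 and 11.9 CPM in Cre-negative 1, 2 and 3 and 1.35 and 7.62 CPM in Cre-positive 1 and 2. Cre-negative 3 and Cre-positive 2 were high and the groups overlapped. Nr1i3 shares 3304 bases of exon on the opposite strand with Tomm40l, and its counts were not whole in 5 of 5 libraries, so reads of this pair were divided and its values are uncertain.

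Among the other steroid receptors, Nr3c2, the mineralocorticoid receptor, had 93.7, 104 and 69.9 CPM in Cre-negative 1, 2 and 3 and 90.6 and 85.3 CPM in Cre-positive 1 and 2, with a log2 fold change of -0.02 ± 0.23 whose sign turned under other scalings. Nr3c1 exceeded Nr3c2 per length in every mouse, by 2.84 ± 0.646 times (SD, n = 5). Esr1, the estrogen receptor, was between 0.741 and 3.12 CPM with groups that overlapped. Cre-positive 1 had 13.9 CPM of Hsd11b2, which inactivates glucocorticoids in cells that respond to aldosterone, against 1.20 to 3.26 CPM in the other 4 mice (log2 fold change 1.81 ± 0.68; edgeR, unadjusted p = 0.0315, adjusted p = 0.977), a fold change that ran from 0.46 to 2.55 with each mouse left out.

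No nuclear receptor gene passed the test between Cre-positive and Cre-negative intestine. Of the 35 genes, 0 were called, and of all 14352 genes tested 0 (0%) were called in either direction by edgeR's quasi-likelihood test at an adjusted p under 0.05. The smallest adjusted p was 0.977. At an unadjusted p under 0.05 there were 0 of the 35 against 3.38% of all genes. DESeq2 called 12 genes higher (0.0836%) and 7 lower (0.0488%), none of them a nuclear receptor gene, and limma-voom called 0 (0%). Their unadjusted p was under 0.05 for 3.30% and 2.33% of all genes, and for 0 of the 35 in both. The log2 fold changes of the 35 were positive for 10 and negative for 25, with a median of -0.21. Over all genes tested 45.5% were positive, with a median of -0.04. Without Cre-positive 1 the median of the 35 was 0.03, and without Cre-positive 2 it was -0.38.

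**Figure D2:**
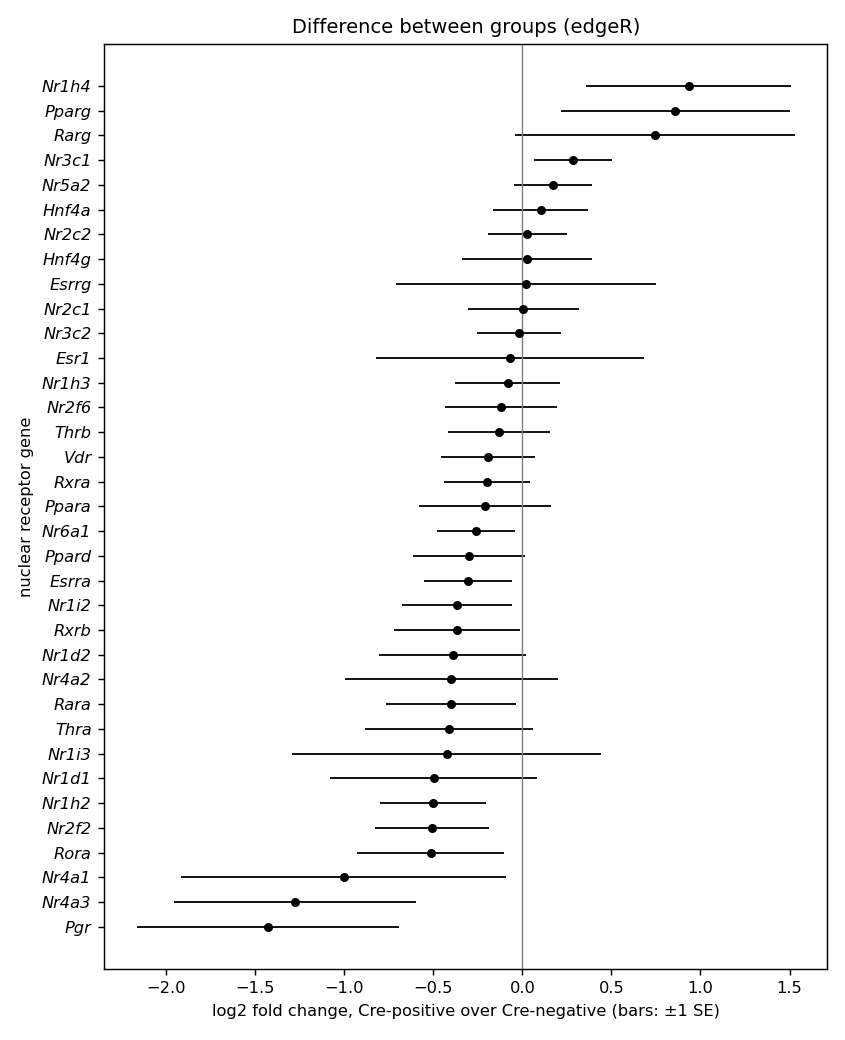
Log2 fold change, Cre-positive over Cre-negative, for the 35 nuclear receptor genes from edgeR, with bars of 1 SE on each side. Values run from -1.43 for Pgr to 0.93 for Nr1h4, and 0 of 35 passed the test.

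Groups did not overlap for 4 of the 35 genes (11.4%), against 18.0% of all genes tested. Besides Nr3c1, these were 3 genes with both Cre-positive mice below all Cre-negative mice, an arrangement that 10.2% of all genes showed. Nr1h2, the liver X receptor found in most tissues, had 25.9, 23.9 and 21.7 CPM in Cre-negative 1, 2 and 3 and 12.6 and 21.0 CPM in Cre-positive 1 and 2 (as a log2 fold change, -0.50 ± 0.30; edgeR, unadjusted p = 0.135, adjusted p = 0.977). Nr6a1, the germ cell nuclear factor, had 53.2, 66.5 and 51.6 CPM in Cre-negative 1, 2 and 3 and 45.9 and 49.4 CPM in Cre-positive 1 and 2 (-0.26 ± 0.22). Nr2f2, the COUP-TFII receptor of stromal and vascular cells, had 15.3, 22.1 and 12.9 CPM in Cre-negative 1, 2 and 3 and 12.6 and 11.04 CPM in Cre-positive 1 and 2 (-0.50 ± 0.32). In each of the 3, the highest Cre-positive mouse lay close under the lowest Cre-negative mouse. Nr2f2 overlapped between groups under RLE or upper-quartile scaling, and Nr6a1 under scaling by total counts, whereas Nr3c1 and Nr1h2 did not overlap under any of these. The log2 fold change of Nr1h2 was nonetheless -0.15 without Cre-positive 1 and ran to -0.88 without Cre-positive 2. Fibroblast markers (8 of 8 in the table) summed to 776, 448 and 243 CPM in Cre-negative 1, 2 and 3 and 391 and 244 CPM in Cre-positive 1 and 2, and their part in the Nr2f2 values was not tested.

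Single mice stood out across many nuclear receptor genes at once. Cre-positive 1 was the lowest of the 5 mice for 18 of the 35 genes, against 29.0% of all genes tested, and the highest for 3, against 25.3%. Cre-negative 1 was the highest for 12 of the 35, against 26.2% of all genes tested. Summed over the 35 genes, the level was 2156 CPM in Cre-positive 1 and 2486 to 2906 CPM in the other mice. The ratio of the highest to the lowest mouse had a median of 2.06 over the 35 genes, exceeded 3 for 11 and stayed under 1.5 for 7. It was largest for Nr4a1, at 9.14, and smallest for Nr2c2, at 1.32. Without Cre-positive 2, the groups did not overlap for 23 of the 35 genes, against 60.0% of all genes tested. Without Cre-positive 1 they did not overlap for 13 of the 35, against 42.6% of all genes tested. Without Cre-negative 1, 2 or 3 in turn, the count was 8, 9 and 11 of the 35, against 28.0%, 28.9% and 36.6% of all genes tested. All of these counts were near the shares of all genes, so they set the nuclear receptor genes apart from other genes in no case.

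**Figure D3:**
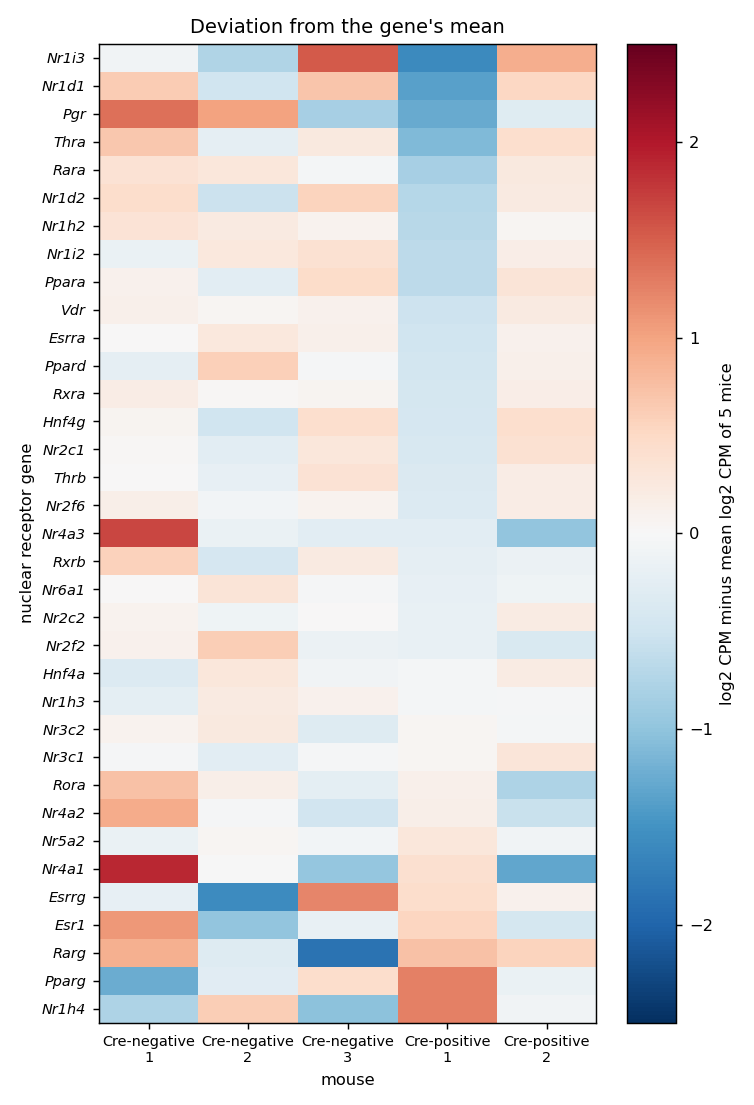
Deviation of each mouse from the gene's mean over 5 mice, in log2 CPM, for the 35 nuclear receptor genes ordered by their deviation in Cre-positive 1 (red above, blue below the mean). Cre-positive 1 is the lowest mouse for 18 genes, whereas Nr1h4 and Pparg are highest there, and the Nr4a genes are highest in Cre-negative 1.

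Nr1h4, the bile acid receptor FXR (chromosome 10, 89454234 to 89533585, minus strand), went opposite to most of the others. It had 24.2, 63.7 and 20.5 CPM in Cre-negative 1, 2 and 3 and 99.3 and 39.3 CPM in Cre-positive 1 and 2. Cre-positive 1 and Cre-negative 2 were the high mice, and the groups overlapped. The means were 36.2 ± 24.0 (SD, n = 3) and 69.3 ± 42.4 CPM (SD, n = 2), and the log2 fold change was 0.93 ± 0.58 (edgeR, unadjusted p = 0.149, adjusted p = 0.977). Leaving out Cre-positive 1 gave 0.15, and leaving out Cre-positive 2 gave 1.49. By per-length level within a mouse, Nr1h4 ranked 3 of 35 in Cre-positive 1 and 14 in Cre-negative 1 and 3. The 250 bases before a RefSeq start of Nr1h4 (chr10:89506659-89506908, minus strand, GRCm38.p6) are shown because this gene had the largest positive log2 fold change of the 35. Capitals mark the half-site AGGTCA that many nuclear receptors bind, here read on the other strand as TGACCT, 214 bases before the start, and this start lies inside the GENCODE gene.
Nr1h4: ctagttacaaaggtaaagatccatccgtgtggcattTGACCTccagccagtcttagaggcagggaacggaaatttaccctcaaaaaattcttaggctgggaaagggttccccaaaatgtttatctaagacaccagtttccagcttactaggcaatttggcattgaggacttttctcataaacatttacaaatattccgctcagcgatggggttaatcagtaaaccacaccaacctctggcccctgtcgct

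Of 9 listed FXR targets, 6 were tested, 0 passed, and 4 were positive and 2 negative with a median log2 fold change of 0.20. Slc51b, a subunit of the transporter that exports bile acids to the blood, had 62.3, 129 and 40.2 CPM in Cre-negative 1, 2 and 3 and 269 and 90.8 CPM in Cre-positive 1 and 2, the same order of mice as Nr1h4. Slc10a2, the transporter that takes bile acids up in the ileum, had 218, 376 and 6.52 CPM in Cre-negative 1, 2 and 3 and 810 and 45.9 CPM in Cre-positive 1 and 2. Lct, the lactase of the proximal small intestine, was lowest in the mice where Slc10a2 was highest, with 3.48 CPM for Cre-positive 1 and 15.8 CPM for Cre-negative 2 against 259 to 881 CPM in the others. Slc51a, the partner of Slc51b, averaged 132 ± 54.5 and 144 ± 27.9 CPM. Fgf15, the hormone that FXR induces in the ileum, was at 0.815 to 49.6 CPM and was highest in Cre-negative 1. Fabp6, the bile acid carrier inside ileal enterocytes, had 47.7, 61.3 and 0.652 CPM in Cre-negative 1, 2 and 3 and 47.6 and 6.37 CPM in Cre-positive 1 and 2. Of the listed targets, only Slc51b had the order of mice of Nr1h4. The position of the sampled intestine and genotype cannot be told apart for these genes, because the stretch taken from each mouse is unknown.

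**Figure D4:**
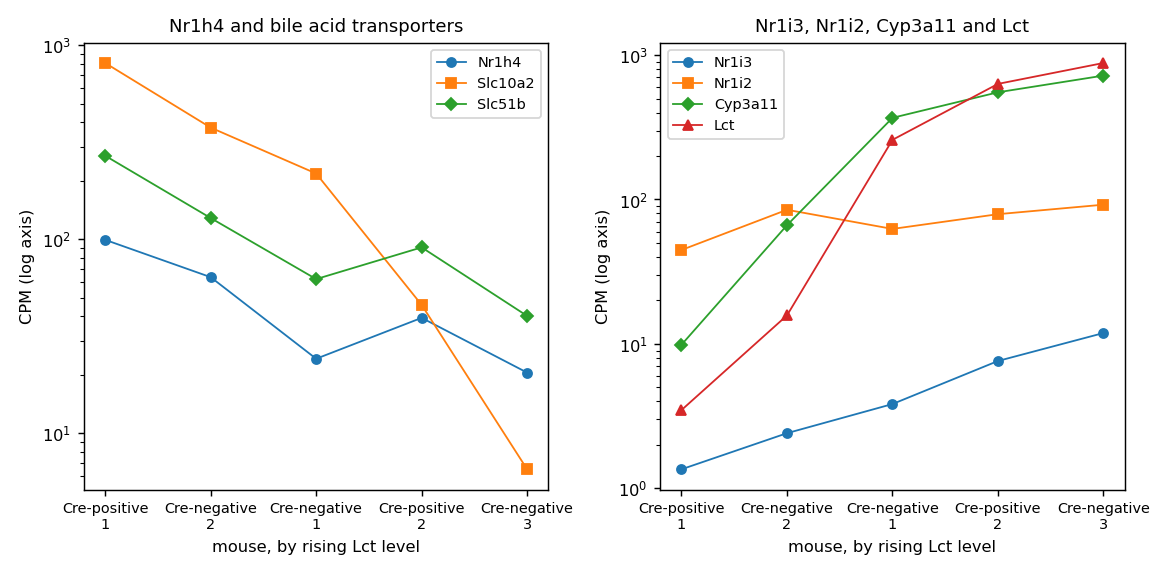
Levels in CPM on log axes for the 5 mice, ordered by rising Lct, with Nr1h4 and 2 bile acid transporter genes at left and Nr1i3, Nr1i2, Cyp3a11 and Lct at right; the genes and the order were chosen after their values were seen. Nr1h4 is highest in Cre-positive 1, at 99.3 CPM, where Slc10a2 is also highest and Lct lowest, whereas Nr1i3 and Cyp3a11 are lowest there.

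The proximal order of mice was also seen among the receptors. Nr1i3, Ppara and Thrb ranked the 5 mice as Gata4 did, the transcription factor of the proximal small intestine, with Cre-negative 3 highest, then Cre-positive 2, Cre-negative 1 and Cre-negative 2, and Cre-positive 1 lowest. That was 3 of the 35 genes (8.57%), against 2.31% of all genes tested, and the order was chosen after the values were seen. Gata4 itself had 24.7, 19.8 and 47.4 CPM in Cre-negative 1, 2 and 3 and 0.387 and 39.9 CPM in Cre-positive 1 and 2. Cyp3a11, Cyp2b10 and Lct held the same order.

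Of the sterol receptors, Nr1h2 carried 61.8% ± 7.18 (SD, n = 5) of the per-length level of the liver X receptors and Nr1h3 the rest. Nr1h3 was even, between 7.91 and 10.9 CPM, and its groups overlapped. Of 13 listed liver X receptor targets, 11 were tested, 0 passed, and 4 were positive and 7 negative with a median log2 fold change of -0.06. Smpdl3a, a secreted phosphodiesterase, had 65.4, 101 and 101 CPM in Cre-negative 1, 2 and 3 and 221 and 112 CPM in Cre-positive 1 and 2 (0.90 ± 0.34; edgeR, unadjusted p = 0.0332, adjusted p = 0.977). Mylip, which degrades the LDL receptor, had 29.2, 15.9 and 14.0 CPM in the Cre-negative and 32.1 and 35.1 CPM in the Cre-positive mice (0.78 ± 0.35). Both had the Cre-positive mice above all Cre-negative mice, an arrangement that 7.89% of all genes tested showed. With each mouse left out, the log2 fold change ran from 0.36 to 1.34 for Smpdl3a and from 0.63 to 1.19 for Mylip. Npc1l1, through which cholesterol is absorbed, averaged 1029 ± 120 and 1008 ± 844 CPM, and Lpcat3 averaged 159 ± 15.9 and 131 ± 61.3 CPM.

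The clock repressors ranked the mice alike, and their groups overlapped. Nr1d1 (REV-ERB alpha, chromosome 11, 98767932 to 98775333, minus strand) had 89.6, 41.1 and 94.3 CPM in Cre-negative 1, 2 and 3 and 22.6 and 83.3 CPM in Cre-positive 1 and 2. Nr1d2 (REV-ERB beta) had 57.5, 29.3 and 62.1 CPM in Cre-negative 1, 2 and 3 and 25.9 and 49.6 CPM in Cre-positive 1 and 2. Cre-negative 2 and Cre-positive 1 were low for both, and their log2 fold changes were -0.50 ± 0.58 and -0.39 ± 0.41. Rora, the activator that competes for their sites, did not share that order and ran from 7.46 CPM in Cre-positive 2 to 21.1 CPM in Cre-negative 1. The labels do not give the time of day at which tissue was taken.

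The 250 bases before the RefSeq starts of Nr1d1 (chr11:98775378-98775627, minus strand, GRCm38.p6) and Nr1d2 (chr14:18239107-18239356, minus strand) are shown because these genes ranked the mice alike. AGGTCA, searched on both strands, is in capitals, and it is absent from the Nr1d1 window and occurs 77 bases before the start in that of Nr1d2.
Nr1d1: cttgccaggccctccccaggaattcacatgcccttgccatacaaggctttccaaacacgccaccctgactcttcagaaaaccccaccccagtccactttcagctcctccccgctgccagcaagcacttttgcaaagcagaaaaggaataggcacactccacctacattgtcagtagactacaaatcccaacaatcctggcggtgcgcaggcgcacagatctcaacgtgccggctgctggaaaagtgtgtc
Nr1d2: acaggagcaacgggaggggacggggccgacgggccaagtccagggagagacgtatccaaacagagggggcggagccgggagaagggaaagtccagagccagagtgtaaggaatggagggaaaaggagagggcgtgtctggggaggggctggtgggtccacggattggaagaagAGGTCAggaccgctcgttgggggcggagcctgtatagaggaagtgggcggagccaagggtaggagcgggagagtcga
The half-site was found in 14.0% of all 32851 promoter windows of this length and in 10 of 60 windows of the nuclear receptor genes. The clock element CACGTG, also searched on both strands, was found in 6.02% of all windows and in neither of these. A match is a description of the letters only.

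Of 15 listed clock genes, 13 were tested, 0 passed, and 4 were positive and 9 negative with a median log2 fold change of -0.20. Cry1, a repressor of the clock, had 11.5, 13.0 and 9.45 CPM in Cre-negative 1, 2 and 3 and 24.4 and 17.4 CPM in Cre-positive 1 and 2. Both Cre-positive mice were above all Cre-negative mice, as for 7.89% of all genes tested. The log2 fold change of Cry1 was 0.88 ± 0.29 (edgeR, unadjusted p = 0.0174, adjusted p = 0.977). It ran from 0.66 to 1.15 with each mouse left out. Clock was even, at 176 ± 24.8 and 194 ± 0.181 CPM, and Npas2 averaged 74.1 ± 9.85 and 70.9 ± 41.7 CPM. Per3 averaged 6.27 ± 2.11 and 3.61 ± 0.922 CPM (-0.80 ± 0.45).

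Thra, the thyroid hormone receptor alpha, lies end to end with Nr1d1 on the opposite strand, and their exons share 263 bases. The counts of both were not whole in any of 5 libraries, whereas their sums were whole (616, 390 and 842 for the Cre-negative mice in order, 204 and 851 for the Cre-positive mice), so reads had been divided between the pair. Thra had 58.0, 31.1 and 42.8 CPM in Cre-negative 1, 2 and 3 and 16.8 and 49.0 CPM in Cre-positive 1 and 2, with Cre-positive 1 lowest as for Nr1d1. How much of either gene's variation came from the other cannot be told from these counts. Thrb, the beta receptor, had 23.2 to 38.6 CPM, and its groups overlapped. Of 9 listed thyroid hormone targets, 7 were tested, 0 passed, and 1 was positive and 6 negative with a median log2 fold change of -0.36. Me1, malic enzyme, had 397, 282 and 92.4 CPM in Cre-negative 1, 2 and 3 and 35.0 and 124 CPM in Cre-positive 1 and 2 (-1.69 ± 0.75). Alpi, the intestinal alkaline phosphatase, averaged 356 ± 113 and 323 ± 296 CPM, and Slc16a10, a transporter of aromatic amino acids and thyroid hormone, averaged 207 ± 109 and 162 ± 169 CPM.

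Vdr, the vitamin D receptor through which calcium uptake is raised, was the fourth most abundant gene per length and even in 4 mice. It had 196, 185 and 192 CPM in Cre-negative 1, 2 and 3 and 125 and 210 CPM in Cre-positive 1 and 2. Cre-positive 1 alone was low, and the log2 fold change was -0.19 ± 0.26. Of 9 listed vitamin D targets, 5 were tested, 0 passed, and 3 were positive and 2 negative with a median log2 fold change of 0.49. Atp2b1, the calcium pump of the basal membrane, averaged 247 ± 61.9 and 360 ± 203 CPM, and Cldn12, a claudin of calcium-permeable junctions, averaged 59.3 ± 9.86 and 83.1 ± 23.9 CPM. Slc30a10, a manganese exporter, averaged 55.8 ± 23.5 and 38.1 ± 11.2 CPM.

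Among the receptors for fatty acids, Ppard led with 61.7% ± 8.01 (SD, n = 5) of the per-length level of the 3 PPAR genes. It had 59.9, 105 and 67.8 CPM in Cre-negative 1, 2 and 3 and 50.3 and 75.7 CPM in Cre-positive 1 and 2. Ppara, the activator of fat oxidation, was lowest in Cre-positive 1, at 11.4 CPM, and highest in Cre-negative 3, at 24.6 CPM. Pparg, better known from fat cells, had 0.958, 1.85 and 3.10 CPM in Cre-negative 1, 2 and 3 and 5.42 and 2.02 CPM in Cre-positive 1 and 2 (as a log2 fold change, 0.86 ± 0.64, with 0.030 without Cre-positive 1 and 1.44 without Cre-positive 2), and the Cre-positive libraries alone brought it past the filter. The groups overlapped for all 3. Of 20 listed PPAR targets, 17 were tested, 0 passed, and 3 were positive and 14 negative with a median log2 fold change of -0.25. For 1 of the 17, both Cre-positive mice lay below all Cre-negative mice, against 10.2% of all genes tested. Pdk4, a kinase that spares glucose when fat is burnt, had 77.6, 27.4 and 53.4 CPM in Cre-negative 1, 2 and 3 and 9.68 and 31.6 CPM in Cre-positive 1 and 2 (-1.35 ± 0.60; edgeR, unadjusted p = 0.0599, adjusted p = 0.977). Pdk4 was not the gene without overlap, as its value in Cre-positive 2 lay above that in Cre-negative 2. Fabp2, a fatty acid carrier of enterocytes, averaged 1009 ± 416 and 773 ± 650 CPM.

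The retinoid receptors were led by Rxra, the partner of many of the receptors above. It had 68.1, 61.0 and 62.9 CPM in Cre-negative 1, 2 and 3 and 44.3 and 67.0 CPM in Cre-positive 1 and 2, and took 79.5% ± 3.94 (SD, n = 5) of the per-length level of Rxra and Rxrb. Rxrb ranged from 8.34 to 16.5 CPM. Rara, a receptor for retinoic acid, ranged from 8.32 CPM in Cre-positive 1 to 18.9 CPM in Cre-negative 1 and made up 90.8% ± 6.48 of the per-length level of Rara and Rarg, while Rarg stayed between 0.326 and 2.16 CPM. In each of these the groups overlapped. Of 12 listed retinoid targets, 7 were tested, 0 passed, and 2 were positive and 5 negative with a median log2 fold change of -0.36. Rbp2, which carries retinol in enterocytes, had 59.4, 29.8 and 122 CPM in Cre-negative 1, 2 and 3 and 12.0 and 92.3 CPM in Cre-positive 1 and 2. Tgm2, a transglutaminase, averaged 68.9 ± 14.9 and 87.6 ± 37.3 CPM, and Dhrs3, which turns retinal back to retinol, averaged 43.0 ± 11.8 and 33.4 ± 14.6 CPM. Scarb1, a lipid and carotenoid receptor, had 4.07, 1.11 and 2.28 CPM in the Cre-negative and 0.968 and 0.622 CPM in the Cre-positive mice (-1.61 ± 0.75). These were 4 to 17 counts a library. Both Cre-positive mice lay below all Cre-negative mice, as for 10.2% of all genes tested.

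The Nr4a genes, which are switched on within minutes of a stimulus and have no known classical ligand, were highest in 1 Cre-negative mouse. Nr4a1 had 41.2, 11.1 and 5.70 CPM in Cre-negative 1, 2 and 3 and 14.7 and 4.51 CPM in Cre-positive 1 and 2. Nr4a3 had 24.4, 6.86 and 6.35 CPM in Cre-negative 1, 2 and 3 and 6.39 and 3.89 CPM in Cre-positive 1 and 2. Nr4a2 was between 1.55 and 4.31 CPM with the same mouse highest. Cre-negative 1 held the top value of all 3, and the groups overlapped, although those of Nr4a3 did not under scaling by total counts. The log2 fold changes were -1.003 ± 0.91, -1.28 ± 0.68 and -0.40 ± 0.60 for Nr4a1, Nr4a3 and Nr4a2. Without Cre-negative 1, that of Nr4a3 was -0.34. The Cre-negative libraries alone brought Nr4a2 past the filter on low counts, as they did Pgr and Nr1i3. Dusp1, an immediate early phosphatase, was also highest in Cre-negative 1, at 43.4 CPM against 8.47 to 17.2 CPM in the other mice, and how the tissue was handled was not tested.

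The orphan receptors Nr2c1 and Nr2c2 (TR2 and TR4) had 22.3 to 38.2 and 167 to 221 CPM, and both were lowest in Cre-positive 1. Nr2c2 shares exon sequence with Mrps25 on the opposite strand and its counts were not whole in any library. Nr2f6 was between 6.58 and 9.48 CPM and shares 1622 bases of exon with Ocel1, and Nr2f2 shares 643 bases with B130024G19Rik, so these values are uncertain too. Nr5a2, the LRH-1 receptor of crypt and ductal epithelium, had 48.2, 56.0 and 51.8 CPM in Cre-negative 1, 2 and 3 and 66.4 and 50.8 CPM in Cre-positive 1 and 2. Cre-positive 1 was highest, the groups overlapped, and the log2 fold change was 0.17 ± 0.22. Of 11 genes listed for LRH-1 and steroid synthesis, 4 were tested, 0 passed, and 2 were positive and 2 negative with a median of 0.25.

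Esrra, the estrogen-related receptor that drives mitochondrial genes, had 88.7, 106 and 96.1 CPM in Cre-negative 1, 2 and 3 and 62.1 and 94.5 CPM in Cre-positive 1 and 2 (as a log2 fold change, -0.31 ± 0.25). Cre-positive 1 was lowest and Cre-positive 2 lay among the Cre-negative mice. Leaving out Cre-positive 1 took the log2 fold change to -0.0042, and leaving out Cre-positive 2 took it to -0.60. Esrrg, its relative, was at 1.11 to 7.66 CPM. Of 11 listed targets of these receptors, all were tested, 0 passed, and 2 were positive and 9 negative with a median log2 fold change of -0.25. Cycs, cytochrome c, averaged 367 ± 74.8 and 525 ± 150 CPM (0.52 ± 0.28), and Atp5b, a subunit of ATP synthase, averaged 452 ± 98.8 and 486 ± 78.8 CPM.

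Among the lists of target genes, which differ in size, that of HNF4 had the highest summed level, from 16726 CPM in Cre-positive 1 to 38769 CPM in Cre-positive 2. Apob alone gave 8822 and 19849 CPM of these 2 sums. Of the 18 listed HNF4 targets, 16 were tested, 0 passed, and 5 were positive and 11 negative with a median log2 fold change of -0.16. Mep1b, a brush border protease, had 447, 606 and 613 CPM in Cre-negative 1, 2 and 3 and 809 and 792 CPM in Cre-positive 1 and 2 (0.53 ± 0.25; edgeR, unadjusted p = 0.0692, adjusted p = 0.977). Cdh17, the cadherin of intestinal epithelium, averaged 1566 ± 111 and 2095 ± 212 CPM (0.42 ± 0.25). For both, the Cre-positive mice lay above all Cre-negative mice, as they did for 7.89% of all genes tested. Apob, the core protein of chylomicrons, and Sis, sucrase-isomaltase, overlapped between groups, with log2 fold changes of 0.18 ± 0.43 and -0.28 ± 0.64.

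Genes of the proteins that work with the receptors also held no called member. Of the 16 listed coactivators all were tested, 0 passed, and 6 were positive and 10 negative with a median log2 fold change of -0.05. Crebbp and Ep300, the acetyltransferases, averaged 235 ± 6.68 and 218 ± 14.5 CPM in Cre-negative and 241 ± 45.0 and 225 ± 22.3 CPM in Cre-positive mice. Ppargc1b, a coactivator of the estrogen-related receptors, averaged 9.82 ± 3.39 and 6.62 ± 2.51 CPM. All 10 corepressors were tested, 0 passed, and 4 were positive and 6 negative with a median of -0.04. Ncor1, the corepressor of thyroid and retinoid receptors, averaged 534 ± 98.5 and 520 ± 228 CPM, and Nrip1 averaged 439 ± 35.5 and 447 ± 187 CPM. All 9 chaperones and co-chaperones were tested, 0 passed, and 7 were positive and 2 negative with a median of 0.19. Hsp90b1, which serves the endoplasmic reticulum, had 278, 382 and 445 CPM in Cre-negative 1, 2 and 3 and 874 and 413 CPM in Cre-positive 1 and 2 (0.80 ± 0.37), and Cre-positive 1, where B cell and plasma cell markers were high, held its top value. The part of those cells in it was not tested.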

How the data were processed

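Total RNA of small intestine from 5 mice (3 Cre-negative, 2 Cre-positive) was depleted of ribosomal RNA and sequenced, per the labels' protocols. The deposited values, which cover 19198 genes, are the authors' estimated counts per gene and mouse. Partek and mm10 are named in the submitters' processing notes, but neither a version nor the aligner, annotation, strand setting or rule for counting. Between 19.6% and 21.7% of values in a library were farther than 0.005 from a whole number. Counts were rounded and tested with edgeR 4.0.16 (R 4.3.3) on genotype alone, with TMM factors, filterByExpr (minimum count 10), a robust quasi-likelihood fit and Benjamini-Hochberg adjustment at 0.05. This tested 14352 genes and removed 4846. Residual degrees of freedom were 3, and the biological coefficient of variation was 33.1%. SE was computed as the absolute log2 fold change over the square root of F. Exact Poisson intervals cover 95%. Exon lengths and positions were read from GENCODE M21 (GRCm38, which mm10 is another name for), and per-length levels divide CPM by the union of exons. Promoter windows came from RefSeq (GRCm38.p6), which matched 39 of 42 genes. Named genes are the 42 receptor genes and, per list, the 3 with the smallest unadjusted p and the 2 with the highest mean CPM. Not all of these are reported, and Lct, Gata4, Cyp2b10, Fgf15, Fabp6 and Dusp1 were named after their values were seen. The receptor genes and lists were chosen with earlier results of these data known. The fit was tested on simulated data, where it called 6 of 13770 genes left unchanged. Of genes set to a log2 fold change of 1 in size it called 2 of 98, and of those set to 2 it called 47 of 96. Alternatives were scaling by RLE, upper quartiles or total counts, the tests of DESeq2 1.42.0 and limma-voom (limma 3.58.1), fitting without robust estimation, no filter, a filter of 5 CPM in 2 libraries, a threshold of 0.1, other lengths, and leaving out each mouse.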

Additional observations from a re-analysis of the deposited data

How the results depend on the processing

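The count of nuclear receptor genes called was 0 under every alternative run, among them DESeq2, limma-voom, a threshold of 0.1 and each left-out mouse. Over all genes, DESeq2 called 19, and leaving out each mouse gave 0 to 58, with 58 without Cre-positive 2. The lone Cre-positive mouse of such a fit is assumed to vary like the others. The smallest adjusted p of a nuclear receptor gene was then 0.332, against 0.977 with all mice. The median log2 fold change of the nuclear receptor genes tested was -0.21 and ran from -0.38 (without Cre-positive 2) to 0.030 (without Cre-positive 1). With all mice, the median over all genes tested was -0.04. Groups did not overlap for 4 of the 35 genes, for 3 under RLE or upper-quartile scaling, and for 8 to 23 when 1 mouse was left out. Over all genes tested the share was 18.0% with all mice and 28.0% to 60.0% when 1 mouse was left out, so it rose there too. The 10 highest genes per length stayed the same 10 in each left-out fit, and 9 of them with the longest transcript or without division by length.

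Of 444 log2 fold changes of single genes under an alternative, 40 turned sign, in 22 genes, and 0 were called. With all mice, Nr3c2 turned to 0.010 under RLE scaling, 0.0036 under total counts, 0.011 with DESeq2, 0.00046 with limma-voom, 0.021 with no filter and 0.0056 with the stricter filter, and limma-voom gave 0.091 for Esr1 and -0.021 for Nr2c1. When each mouse was left out, the log2 fold change ran from -0.13 to 0.10 for Nr3c2, from -0.57 to 0.39 for Esr1, from -0.42 to 1.08 for Esrrg, from -0.80 to 0.016 for Nr1i2, from -2.13 to 0.59 for Nr1i3 and from -0.18 to 0.015 for Nr1h3. It ran from -1.68 to 0.19 for Nr1d1, from -0.89 to 0.036 for Nr1d2, from -0.0029 to 0.29 for Hnf4a, from -0.42 to 0.42 for Hnf4g, from -0.75 to 0.23 for Ppara, from -0.99 to 0.065 for Rara and from -0.49 to 0.10 for Rxra. It ran from -0.57 to 0.17 for Vdr, from -1.34 to 0.20 for Thra, from -0.40 to 0.15 for Thrb, from -0.40 to 0.37 for Nr2c1, from -0.14 to 0.25 for Nr2c2, from -0.37 to 0.15 for Nr2f6, from -2.03 to 0.21 for Nr4a1, from -0.73 to 0.10 for Nr4a2 and from -0.00094 to 0.39 for Nr5a2. The cause was not tested. No paired analysis was possible because the labels give no replicate numbers that the groups share. Groups of 3 and 2 mice, and counts under 10 for Pgr in 2 libraries, limit the precision.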
